A study of Mus musculus with 4 samples.

Results

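The genes described here are 8 transcription factors of embryonic mesenchyme, namely Prrx1, Prrx2, Twist1, Twist2, Alx1, Alx4, Msx1 and Msx2. They were chosen by symbol from the 27998 genes counted in each library, and all 8 were found once. Expression is given by stage, by compartment of cells that share marker genes, and by joint detection in single cells.

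Mesenchyme is the loose tissue of migratory cells from which connective tissue, bone and muscle coverings of the embryo arise. Prrx1 and Prrx2 are paired-related homeodomain proteins of limb and face mesenchyme, and Alx1 and Alx4 are homeodomain proteins of the same wider class that are needed for the skull and the front of the face. Twist1 and Twist2 are basic helix-loop-helix proteins that pair with E proteins and hold cells in a mesenchymal state. Msx1 and Msx2 are homeodomain repressors and classical response genes of BMP, a family of secreted growth factors, in the limb, the face and lateral mesoderm. These genes are well known in neural crest of the head and in limb buds, and the cells sorted here come from mesoderm.

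Single-cell RNA sequencing was performed on mouse embryos of genotype Mesp1Cre;Rosa26-GFPflox/+ on the Swiss Webster strain, with 1 library for each of the early stages E8.0 and E8.25 and of the late stages E9.5 and E10.5 (E marks embryonic day). Lists of 4 values below run from the earliest library to the latest. Cre recombinase made from the Mesp1 gene, active in the first mesoderm of heart and head, turns on GFP for good, so every library holds descendants of such cells and no library is an untreated or Cre-negative control. Cells positive for GFP and negative for DAPI (a dye that enters dead cells) were sorted from tissue pooled over embryos. At the early stages the upper body was taken, and the late tissue was dissected heart plus pharyngeal apparatus, so stage and dissected region cannot be told apart. No stage had a second library, so stages were not tested against each other and every interval on a single library covers counting error only.

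The libraries held 2884 to 7525 retained cells with a median of 15205 to 35216 UMIs (counted molecules) per cell. Pairs of libraries shared 16 to 78 cell barcodes, 0.555% to 1.39% of the smaller library. Compartments were gated on marker lists that hold no gene described here, and in no gate did markers of other lists outnumber its own among the leading 10 genes. Since cells were chosen on these markers, that count says little on how pure a gate is. In lateral Hand1 mesoderm the leading 10 held Phlda2 and Postn at E8.25 and Postn and Col1a1 at E9.5, beside 3 own markers each time. Erythroid cells made up 1.39%, 11.1%, 0.0573% and 15.7% of the cells gated. The 7 neural crest markers, genes of a lineage outside the Mesp1 mesoderm, summed to 3.92, 29.0, 4.92 and 10.9 CPM (UMIs scaled to the same total in every library) with none at 0, and 67 cells passed the neural crest gate at E8.25. The 5 epithelial or neural markers summed to 2.85 to 6.94 CPM.

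All 8 genes are annotated as protein-coding in GRCm38.p6. Prrx1 (ENSMUSG00000026586) lies at chr1:163245119-163315145 and Prrx2 (ENSMUSG00000039476) at chr2:30845064-30881251. Twist1 (ENSMUSG00000035799) lies at chr12:33957671-33959831 and Twist2 (ENSMUSG00000007805) at chr1:91801461-91848034. Alx1 (ENSMUSG00000036602) lies at chr10:103007847-103029549 and Alx4 (ENSMUSG00000040310) at chr2:93642434-93681341. Msx1 (ENSMUSG00000048450) lies at chr5:37820491-37824585 and Msx2 (ENSMUSG00000021469) at chr13:53466881-53472780.

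Promoters are shown for both Msx genes, whose levels followed each other most closely below. RefSeq promoters of build GRCm38.p6 were matched for 6 genes, without Alx1 and Alx4. The 250 bases before the start of the transcript are given 5′ to 3′ on the strand of the gene, with capitals for TAATTA (the palindrome bound by many homeodomain proteins) and for CCAAT on either strand. The stretches lie at chr5:37824586-37824835 (minus strand) for Msx1 and chr13:53472781-53473030 (minus strand) for Msx2, directly upstream of the annotated genes.
Msx1: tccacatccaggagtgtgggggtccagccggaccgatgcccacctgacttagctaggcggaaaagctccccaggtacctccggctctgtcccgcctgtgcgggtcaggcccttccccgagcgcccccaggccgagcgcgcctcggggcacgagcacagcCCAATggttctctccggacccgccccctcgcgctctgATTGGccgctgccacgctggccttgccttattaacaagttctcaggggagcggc
Msx2: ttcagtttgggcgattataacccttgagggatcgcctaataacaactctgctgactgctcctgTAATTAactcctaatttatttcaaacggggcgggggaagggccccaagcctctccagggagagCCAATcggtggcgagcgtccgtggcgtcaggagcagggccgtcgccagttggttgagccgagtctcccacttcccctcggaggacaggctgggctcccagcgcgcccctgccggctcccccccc

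TAATTA was found once in the Msx2 stretch, starting 187 bases before the transcript start, and once in that of Prrx1, at 173 bases, and in none of the other 4 stretches. It is held by 4.84% of all 32851 promoters of the same length. CCAAT was found 2 times for Msx1, at 91 and 54 bases, once each for Msx2, Twist1 and Twist2, and not for Prrx1 or Prrx2, and 33.8% of all promoters hold it. CANNTG, the E-box read by basic helix-loop-helix dimers such as those of Twist, was found once each for Msx1 and Msx2 and in none of the other 4 stretches, against 66.2% of all promoters. TATAAA was found for Twist1 alone (12.4% of all promoters), and the GC content ran from 47.6% for Prrx1 to 70.0% for Prrx2. These matches describe letters in a short window and say nothing on binding.

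Across stages the 8 genes went different ways. Prrx1 was measured at 46.8, 34.4, 73.8 and 93.0 CPM, with exact Poisson 95% intervals from 45.7 to 47.9 in the first and from 91.3 to 94.7 in the last library. Prrx2 was measured at 119, 143, 282 and 112 CPM. Prrx1 was thus highest in the latest library, while its paralog peaked at E9.5 and had a log2 ratio of the last library to the first of -0.08 (-0.11 to -0.05). That order turned with what was summed, since the ratio was 0.23 without erythroid cells and 0.093 with globin, mitochondrial and ribosomal protein genes taken out of the total.

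The Twist genes also parted. Twist1 was at 99.3, 84.6, 24.8 (23.6 to 25.9) and 57.9 CPM. Twist2 was at 28.7, 21.6, 48.2 and 60.1 CPM. Twist1 was therefore lowest where Prrx2 was highest, in the E9.5 library, while each late value of Twist2 exceeded each early one. Alx1 was at 20.9, 23.5, 34.6 and 31.2 CPM, and Alx4, which rested on 153 to 366 UMIs per library, at 1.25, 2.08, 2.17 and 2.86 CPM. Both Alx genes were higher in each late library than at E8.0. Over all cells pooled, Msx1 declined at every step, from 95.3 CPM (93.7 to 96.8) through 55.6 and 49.2 CPM to 29.9 CPM (29.0 to 30.9). Msx2 was at 42.4, 30.2, 41.0 and 18.8 CPM, so its E8.0 and E9.5 levels lay within counting error of each other (log2 ratio -0.05, -0.11 to 0.01).

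**Figure D1:**
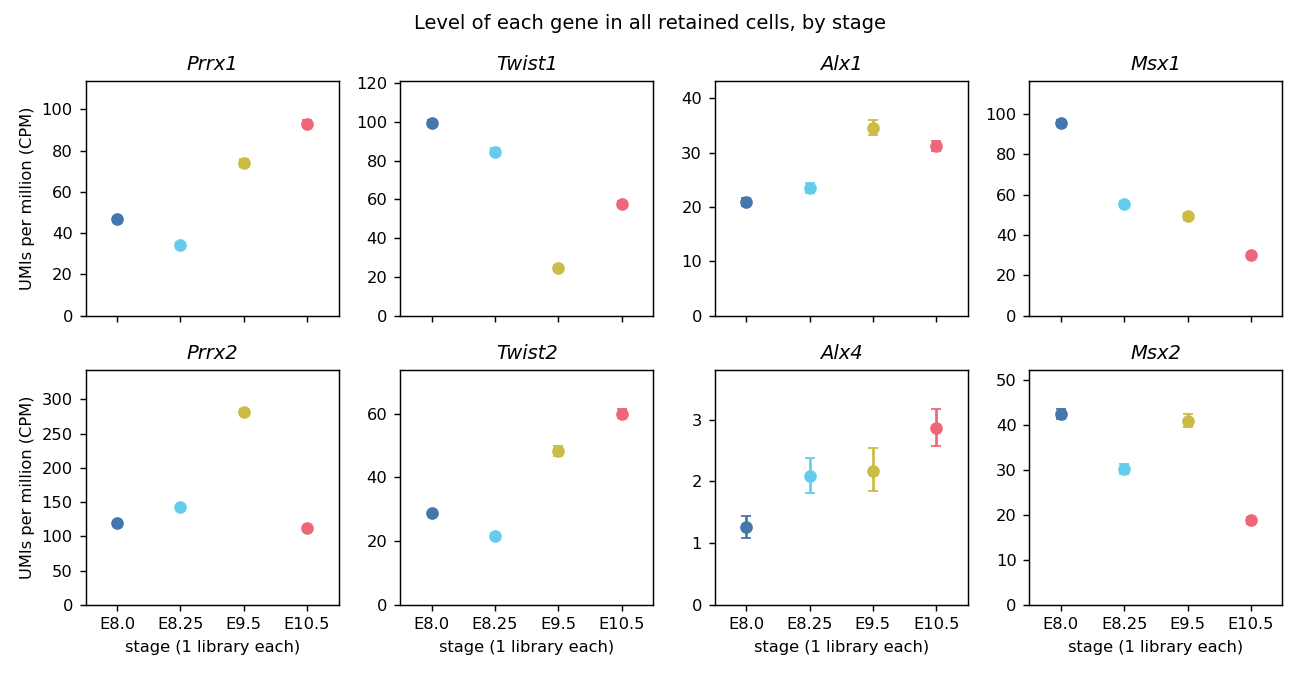
Level (CPM) of each gene over all retained cells of the 4 libraries, 1 per stage. Points are pooled values and bars exact Poisson 95% intervals; Msx1 is highest at E8.0 (95.3 CPM), Prrx2 at E9.5 (282 CPM), and Twist1 is lowest at E9.5 (24.8 CPM).

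From E8.0 to E10.5 the log2 ratio was 0.99 for Prrx1 (0.95 to 1.03), 1.06 for Twist2, 1.19 for Alx4 and 0.58 for Alx1. It was -1.67 for Msx1 (-1.72 to -1.62), -1.17 for Msx2 and -0.78 for Twist1. For none of the 8 did each late library exceed each early library at least 2-fold, and for none was the reverse true. Over all 15639 genes with enough UMIs, 7.92% were 2-fold higher and 2.51% 2-fold lower by this rule, which is a rule of size and no test. The median log2 ratio over all genes was -0.0032 between E10.5 and E8.0.

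The order of stages differed between compartments for most of the 8 genes, while the low point of Twist1 was shared. In the 6 groups of cells present in all 4 libraries (cardiomyocyte, endothelial, second heart field, posterior second heart field, lateral Hand1 mesoderm and ungated cells), Twist1 was lowest at E9.5 in 6 of 6. Of 9253 genes measured in all of these groups, 2.60% had their lowest level at E9.5 in all 6. Prrx2 was highest at E9.5 in 5 of 6, endothelial cells being the exception. Prrx1 and Twist2 were each highest at E10.5 in 4 of 6. Msx1, which declined at every step over all cells pooled, was highest at E8.0 in 1 of 6 and lowest at E10.5 in 1 of 6. For counts below 6 of 6 the share over all genes was not taken, so they have no baseline here. With 1 library per stage, a property of the E9.5 library and a property of the stage cannot be told apart.

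Levels by compartment set these genes apart from one another. A cell was gated where at least 2 markers and at least 40% of a list were on, and a level is given for compartments with at least 30 cells. Compartments were then tested against all other cells of the same libraries, counting on both sides only cells with at least 10000 UMIs. The test was edgeR's quasi-likelihood test on UMI sums, with the library as a block. The fold changes below come from this fit, with Benjamini-Hochberg adjustment over all genes tested, and a gene was called at an adjusted p under 0.05.

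**Figure D2:**
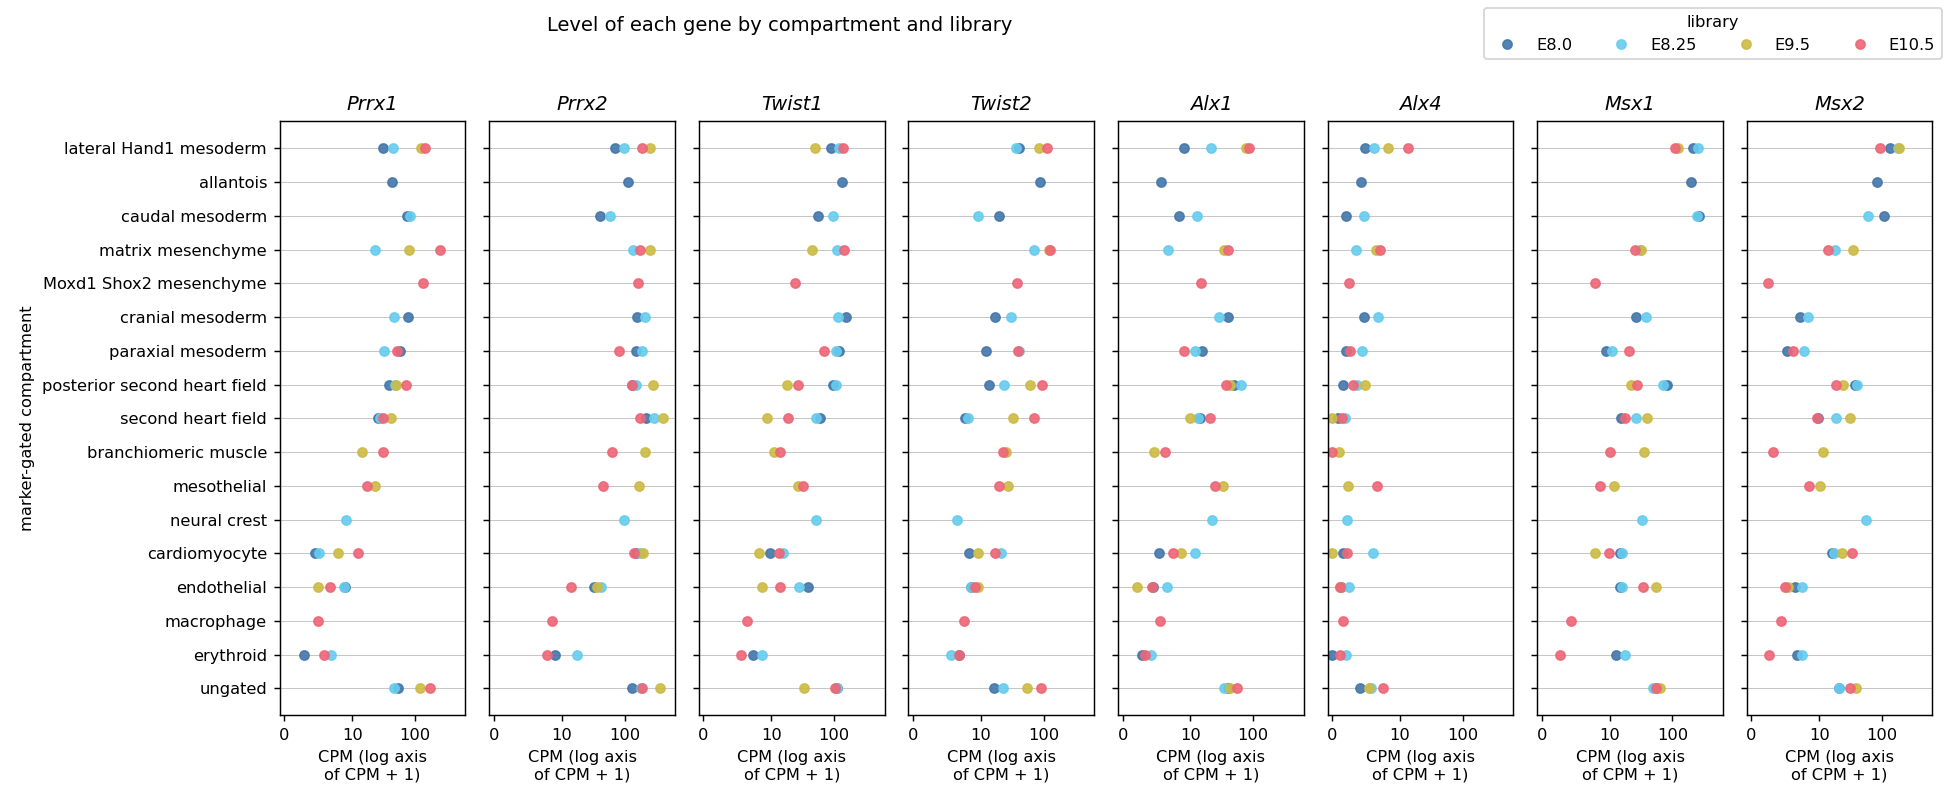
CPM of each gene (log axis of CPM + 1) in every marker-gated compartment with at least 30 cells, with 1 point per library coloured by stage. Msx1 and Msx2 are highest in lateral Hand1, allantois and caudal mesoderm, whereas Prrx2 stays between 141 and 192 CPM in cardiomyocytes, where Prrx1 is at 2.0 to 12.3 CPM.

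Among the compartments tested, Msx1 and Msx2 had their highest mean levels in lateral mesoderm marked by Hand1, Mab21l2, Bmp4 and Ahnak, the sheet that borders the early heart and later the body wall. Msx2 was at 132, 175, 184 and 92.4 CPM in these cells, and at 15.2 to 36.1 CPM in the other cells. The ranges do not overlap, and the log2 fold change was 2.58 ± 0.233 (SE, n = 4 libraries) with an adjusted p of 0.00964 (edgeR, Benjamini-Hochberg). Msx1 was at 209, 248, 123 and 108 CPM against 87.9, 38.3, 41.3 and 26.4 CPM, higher in 4 of 4 libraries (1.84 ± 0.225, adjusted p 0.0186 by edgeR). Twist2 was at 40.6, 37.4, 86.1 and 112 CPM against 28, 20.2, 45.6 and 55.2 CPM, a smaller difference that was the same way in 4 of 4 (0.79 ± 0.0769, adjusted p 0.0110 by edgeR). These 3 of 8 were called higher and 0 lower, where 2.45% and 3.22% of 13776 genes were. Alx4 (1.47, adjusted p 0.0551 by edgeR, 4 of 4 libraries) and Twist1 (0.71, 0.124) did not pass. Alx4 passed in 4 of 11 alternative fits, with DESeq2 (1.45, adjusted p 0.00144), with no filter on low counts (1.43, 0.0481 by edgeR), with the stricter gate (1.36, 0.0345) and with gates on unthinned counts (1.42, 0.0482), and Twist1 passed with DESeq2 alone (0.70, 0.0407). Prrx2 (-0.25) was lower in 3 of 4 libraries without a call. Without the E9.5 library Msx1 was no longer called (1.92, adjusted p 0.0657 by edgeR).

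Within the same lateral gate, Alx1 and Prrx1 were low early and high late. Alx1 was at 7.70 and 21.5 CPM in the early libraries, below the other cells (21.5 and 23.7 CPM), and at 78.1 and 84.5 CPM in the late ones, above them (31.3 and 27.9 CPM). Prrx1 was at 31.9 and 46.3 CPM early and at 126 and 141 CPM late. Alx4 was at 2.14, 3.44, 6.10 and 13.3 CPM, each above the other cells. The fold change over the libraries was 0.36 ± 0.500 for Alx1 (adjusted p 0.680 by edgeR), with directions that split between early and late libraries.

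Of the other genes of this biology, 5 of 15 BMP pathway genes (the marker Bmp4 left out) were called higher in lateral Hand1 mesoderm and 0 lower, led by Bmp5 (1.75), a ligand, Bambi (1.51), a decoy receptor, and Smad6 (1.07), an inhibitor. The median over the list was 0.37 against -0.01 over all genes tested. Of 14 matrix genes 4 were higher (median 0.89), led by Col1a1 (1.87), Tnc (1.74) and Col1a2 (1.31). Of 26 further mesenchyme regulators 0 were higher and 6 lower (median -1.29), led by Meox2 (-2.96), Ebf1 (-2.91) and Foxd1 (-2.66). That list shares Dlx2 and Dlx5 with the neural crest markers, Meox2 with the paraxial and Foxd1 with the cranial ones. Each cell went to the gate with the highest share of its markers on. Lower values of another gate's markers, here and on the lists below, are thus in part set by the gating. Of 8 Twist partners Hand2 was higher (1.85), a helix-loop-helix factor, and 0 were lower (median 0.17).

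Allantois, with 1 cell at E8.25, reached 30 cells at E8.0 alone, and caudal mesoderm did so in both early libraries, with 457 and 35 cells. Both compartments also held much Msx message. Levels over all cells at E8.0 and in the other libraries thus come from different mixes of cells. In allantois (1051 cells at E8.0, marked by Tbx4 and Pitx1), Msx1 was at 197 CPM (192 to 202), Msx2 at 83.1 CPM and Twist2 at 86.5 CPM, against 72.8, 33.0 and 15.7 CPM in the other cells. Among cells of that library with at least 10000 UMIs, allantois cells gave 55.5% of Twist2 UMIs, 38.0% of Msx1 UMIs, 36.3% of Msx2 UMIs and 18.5% of all UMIs. Alx1 in contrast was at 2.85 CPM (2.25 to 3.57) against 24.6 CPM. In caudal mesoderm, marked by Cdx genes, Msx1 was at 257 and 244 CPM, Msx2 at 106 and 61.4 CPM, and Prrx2 at 42.2 and 60.1 CPM, below the other cells (125 and 144 CPM). With 1 or 2 libraries these compartments were not tested.

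Paraxial mesoderm, the source of somites, showed the opposite for Msx2. Msx2 was at 2.49, 5.40 and 3.39 CPM there (no E9.5 sum), against 47.7, 34.1 and 19.1 CPM, and its log2 fold change of -3.26 ± 0.352 (n = 3 libraries) was called (adjusted p 0.0106 by edgeR). It was the only 1 of the 8 called, with 0 called higher, where 3.19% of 14281 genes were called lower and 0.665% higher. Msx1 was at 8.76, 11.1 and 20.8 CPM against 108, 62.7 and 30.5 CPM, lower in 3 of 3 (-2.40 ± 0.524) without passing (adjusted p 0.0780 by edgeR). Twist1 was higher in 3 of 3 (0.35, adjusted p 0.123 by edgeR), and the other 5 genes lay between -1.06 (Alx1) and 0.17 (Prrx2). Leaving out the E10.5 library left 4 sums and 1 residual degree of freedom. In that edgeR fit Msx1 (-3.03, adjusted p 0.000416), Alx1 (-0.74, 0.0332), Twist1 (0.40, 0.00935) and Prrx2 (0.49, 0.00275) were called as well. Without E8.0 Alx1 was called by edgeR (-1.49, adjusted p 0.0301). Of 10 alternative fits Msx1 was called in 5, Alx1 in 4, Twist1 in 2 and Prrx2 in 2.

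In the same paraxial cells 4 of 16 BMP pathway genes were lower, led by the ligands Bmp2 (-3.53) and Bmp4 (-3.29) and by Bambi (-2.06), and 1 was higher, the antagonist Grem1 (1.08), with a list median of -0.58. Hand1 (-3.95) and Hand2 (-3.18) were lower and the E proteins Tcf4 (0.91) and Tcf12 (0.61) higher among 9 Twist partners (median -0.11). Of 25 mesenchyme regulators 2 were higher, among them Foxd1 (1.58), and 2 lower, among them Dlx5 (-5.03), with a median of 0.20. Of 14 matrix genes 3 were lower, namely Postn (-2.37), Tnc (-1.84) and Vim (-1.26), and 0 higher (median -0.40). The median over all genes tested was 0.02.

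Both Twist genes were raised in matrix mesenchyme, cells gated on collagens, Postn, Lum, Dcn and Pdgfra in the 3 libraries from E8.25 on. Twist2 was at 69.7, 121 and 125 CPM, against 21.2, 47.7 and 53.3 CPM, so the ranges do not overlap (1.23 ± 0.125, adjusted p 2.3e-07 by edgeR). Twist1 was at 111, 44.4 and 144 CPM against 84.4, 24.2 and 49.9 CPM, higher in 3 of 3 (0.87 ± 0.146, adjusted p 0.000199 by edgeR). Msx1 (31.6, 32.2 and 25.5 CPM against 55.7, 48.1 and 30.6 CPM) and Msx2 (18.4, 35.0 and 14.2 CPM against 30.2, 41.1 and 19.1 CPM) were lower in 3 of 3, with log2 fold changes of -0.64 ± 0.140 (adjusted p 0.00295) and -0.58 ± 0.165 (0.0215) by edgeR. Of the 8 genes 2 were thus called higher and 2 lower, where 4.98% and 7.06% of 13804 genes were. With gates on unthinned counts neither Msx1 (-0.19, adjusted p 0.291) nor Msx2 (-0.14, 0.696) was called by edgeR, and Msx2 was not called by DESeq2 (-0.59, 0.0939).

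Prrx1 in matrix mesenchyme was at 23.7, 80.4 and 240 CPM, against 34.4, 73.8 and 78.8 CPM. The level at E10.5 is the highest for Prrx1 in any compartment, but the fold change of 0.59 ± 0.205 was not called (adjusted p 0.0636 by edgeR) and was positive in 2 of 3 libraries. It was called in 4 of 9 alternative fits. Among them were those without E8.25 (0.84, adjusted p 1.12e-09) and without E9.5 (0.86, 1.33e-08), edgeR fits with 1 residual degree of freedom. Without E10.5 the calls of Twist1 (0.51, adjusted p 0.0851) and Msx2 (-0.49, 0.331) were lost in edgeR. The gate held 30 and 58 cells in the first 2 of these libraries and 499 in the last, so the early value rests on few cells. Prrx2 (0.05), Alx1 (-0.17) and Alx4 (0.40) were not called, though Alx4 was called in 1 of 9 alternative fits.

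Of 27 further mesenchyme regulators 12 were higher and 4 lower in matrix mesenchyme (median 0.45 against -0.0045 over all genes), led by the forkhead genes Foxd1 (2.54), Foxc2 (1.87) and Foxf2 (1.87) and by Dlx5 (-3.08), Dlx2 (-2.53) and Shox2 (-0.94). Matrix genes that did not serve as markers were higher in 5 of 7, among them Col6a1 (1.53), Col5a1 (1.53) and Vcan (1.25), and 0 were lower (median 1.10). Of 16 BMP pathway genes Bmp2 was higher (0.84) and Bmp4 (-0.92) and Id1 (-0.40) were lower (median -0.08). Of 9 Twist partners Hand2 (-0.61) and Id1 were lower and 0 higher (median -0.10). The Moxd1 Shox2 mesenchyme gate of E10.5 (174 cells) carried Prrx1 at 133 CPM and Prrx2 at 159 CPM but Msx2 at 0.780 CPM, from 2 UMIs, against 19.2 CPM in the other cells.

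In the second heart field, the progenitors that lengthen the heart tube and were gated here on Isl1, Nkx2-5, Fgf10, Fgf8 and Nkx2-6, the Prrx paralogs went opposite ways. Prrx2 was at 214, 285, 387 and 174 CPM, against 112, 136, 274 and 108 CPM, higher in 4 of 4 libraries (0.76 ± 0.109, adjusted p 0.00898 by edgeR). Prrx1 was at 26.1, 27.9, 42.4 and 31.2 CPM against 47.8, 34.7, 76.1 and 90.3 CPM, lower in 4 of 4 (-0.90 ± 0.195, adjusted p 0.0367 by edgeR). Twist1 (-1.08, adjusted p 0.0168), Alx1 (-0.96, 0.0358) and Alx4 (-2.75, 0.0216) were lower as well by edgeR, each in 4 of 4. Alx4 rested on 0 to 3 UMIs per gated sum. Of the 8 genes 1 was called higher and 4 lower, where 3.09% and 4.18% of 13773 genes were.

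Several of the lower calls hung on single libraries. By edgeR, Prrx1 was lost without E8.0 (-0.94, adjusted p 0.0825) or E9.5 (-0.95, 0.0765), and Alx1 without E8.25 (-1.0, 0.124) or E10.5 (-1.01, 0.0730). Alx4 was lost without E8.0 (-2.90, adjusted p 0.0607), E8.25 (-3.28, 0.0657) or E10.5 (-2.67, 0.0574), again by edgeR. Msx1 (-1.26, adjusted p 0.0781) and Msx2 (-1.09, 0.0624) were lower in 4 of 4 libraries without passing in edgeR, and passed without E9.5 (-1.68, 0.0335 and -1.42, 0.0361). The calls of Prrx2 and Twist1 held with any library left out. With gates on unthinned counts Prrx1 (-0.69, adjusted p 0.0887), Alx1 (-0.85, 0.0507) and Alx4 (-1.60, 0.114) were not called by edgeR. Twist2 (-1.06, adjusted p 0.149 by edgeR) was lower in 3 of 4 libraries and higher at E10.5, and passed with the stricter gate alone (-1.47, 0.00618). Of 11 alternative fits Msx1 was called in 3 and Msx2 in 5.

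Of 9 Twist partners 5 were higher in the second heart field and 0 lower (median 0.56), with Id4 (1.07), Id2 (0.84) and Id1 (0.76) in the lead, inhibitors that sequester E proteins. Of 16 BMP pathway genes 6 were higher, led by Bmp7 (1.02), Grem1 (0.92) and Id2, and Bmp2 (-1.33) was lower (median 0.46). Of 14 matrix genes 7 were lower, led by Postn (-2.85), Lum (-2.26) and Dcn (-2.12), and 0 higher (median -0.97). Those named are markers of the matrix mesenchyme gate, so this count and median are in part set by the gating. Of 26 mesenchyme regulators Six2 (1.40) was higher and 7 were lower, among them Tbx18 (-2.08) and Foxd1 (-1.84), with a median of -0.33. The median over all genes tested was 0.01.

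None of the 8 was called in the posterior second heart field, gated on Foxf1, Wnt2, Tbx5, Osr1 and Hoxb1, where 5.14% of 13720 genes were called higher and 7.19% lower by edgeR. Alx1 came nearest, at 50.7, 64.1, 42.9 and 37.4 CPM against 19.2, 21.2, 32.6 and 29.6 CPM. It was higher in 4 of 4 libraries and the ranges do not overlap, but the fold change of 0.85 ± 0.253 did not pass (adjusted p 0.0794 by edgeR). It passed with DESeq2 (0.86, adjusted p 0.0124) and without E10.5 (1.10, 0.0373 by edgeR), and Prrx1 passed without E8.25 (-0.50, 0.0475 by edgeR). On the lists, 0 of 25 mesenchyme regulators were higher and 6 lower (median -0.43), led by Dlx5 (-6.49), Dlx2 (-3.99) and Ebf1 (-2.74). Pdgfra (0.60) and Col3a1 (0.36) were higher among 14 matrix genes and 4 were lower, led by Lum (-2.68), Postn (-2.36) and Fn1 (-0.66), with a median of -0.12. Nog (0.73) was higher and Id1 (-0.42) lower among 15 BMP pathway genes (median 0.01), and Tcf3 (0.31) was higher and Hand1 (-1.29) and Id1 lower among 9 Twist partners (median -0.09), against a median of 0.01 over all genes.

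**Figure D3:**
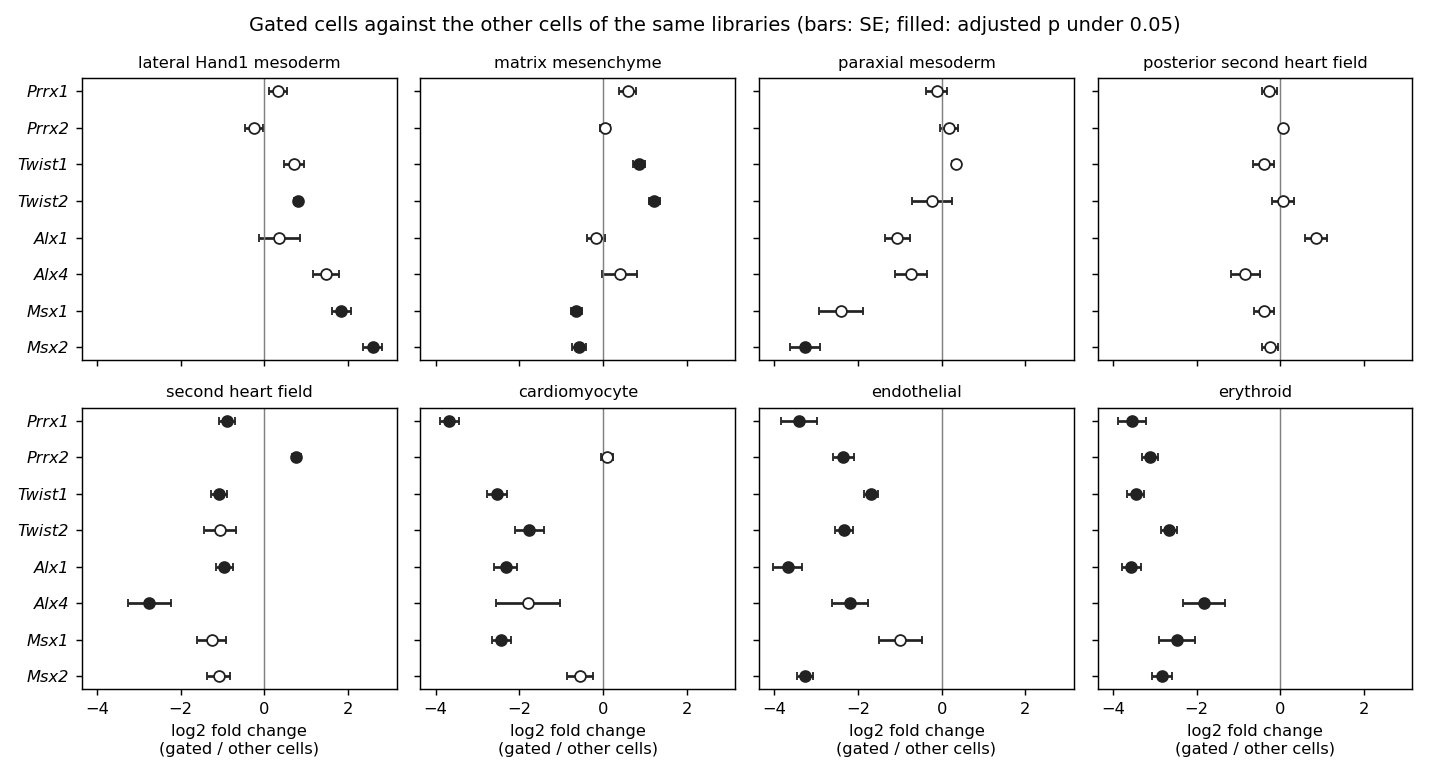
Log2 fold change (points) with its standard error (bars) of each gene in 8 gated compartments against the other cells of the same 3 or 4 libraries, filled where edgeR's adjusted p was under 0.05. Msx1 and Msx2 lie to the right in lateral Hand1 mesoderm (1.84 and 2.58), both Twist genes in matrix mesenchyme, and all 8 genes lie to the left in endothelial and erythroid cells.

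Cardiomyocytes, gated on sarcomere genes, held Prrx2 at a high level and little of most of the others. Prrx2 was at 150, 173, 192 and 141 CPM against 117, 142, 291 and 109 CPM, with a log2 fold change of 0.10 ± 0.150 (adjusted p 0.660 by edgeR). Prrx1 was at 2.0, 2.37, 5.60 and 12.3 CPM against 48.0, 34.7, 81.1 and 91.0 CPM (-3.67 ± 0.222, adjusted p 3.4e-05 by edgeR). Twist1 (-2.53), Msx1 (-2.43), Alx1 (-2.32) and Twist2 (-1.76) were lower too, with adjusted p of 0.000256 to 0.00805 in edgeR, each in 4 of 4 libraries. These 5 of 8 were called lower and 0 higher, where 16.9% and 15.4% of 13766 genes were.

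Msx2 in cardiomyocytes was at 16, 17.4 and 23.2 CPM in the first 3 libraries, below the other cells, but at 33.9 CPM (27.7 to 41.2) at E10.5, above them (18.4 CPM). Its fold change of -0.54 ± 0.309 was not called (adjusted p 0.214 by edgeR), and without E10.5 it was (-0.99, 0.00632). Alx4 (-1.79 ± 0.773, adjusted p 0.114) was called by edgeR without E8.25 alone (-2.79, 0.0462), a fit whose gated sums hold 2, 0 and 2 UMIs. Of 25 mesenchyme regulators 0 were higher and 13 lower (median -1.88), led by Foxd1 (-4.61), Meox2 (-4.57) and Ebf1 (-4.49). BMP pathway genes were higher in 7 of 16 and lower in 2 (median 0.54), led by Bmp2 (2.19), Bmp7 (1.75) and Nog (1.53), with Grem1 (-5.05) and Id3 (-0.69) lower. Of 14 matrix genes Col5a1 (1.29) and Vcan (1.09) were higher and 7 lower, led by Dcn (-4.06), Lum (-3.60) and Postn (-2.61), with a median of -0.67. Of 9 Twist partners Id4 (1.67) and Hand2 (1.21) were higher and 4 lower, led by Tcf4 (-1.06), Tcf12 (-1.05) and Id3 (median -0.38). The median over all genes tested was -0.06.

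In endothelial cells 7 of 8 were called lower and 0 higher, where 18.4% and 18.5% of 13805 genes were. The log2 fold changes ran from -3.68 for Alx1 to -1.68 for Twist1, each lower in 4 of 4 libraries, with adjusted p of 8.67e-05 to 0.00843 (edgeR). Without the library as a block Twist1 was not called (-1.57, adjusted p 0.0927 by edgeR). Msx1 was the exception. It was at 14.9, 15.9, 54.6 and 34.4 CPM, below the other cells in the early and above them in the late libraries, and was not called (-0.98 ± 0.511, adjusted p 0.177 by edgeR).

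Nfatc1 and Npr3 are genes of the endocardium, the inner lining of the heart from which valve cushions form. In the late libraries Msx1 was higher in endothelial cells that carried either gene than in those with neither. At E9.5 Msx1 was at 85.1 CPM (72.1 to 99.8) in 95 such cells and at 11.2 CPM (6.12 to 18.8) in 65 without either gene, a log2 ratio of 2.93 (2.14 to 3.83). At E10.5 the levels were 48.0 CPM (41.1 to 55.7) and 17.3 CPM (12.8 to 22.9), a log2 ratio of 1.47 (1.01 to 1.96). At E8.0 (0.01, -0.60 to 0.59) and E8.25 (-0.43, -1.24 to 0.32) the difference was within counting error. Msx2 was far rarer, at 3.92 CPM (7 UMIs) against 0.799 CPM (1 UMI) at E9.5 and at 3.91 CPM (14 UMIs) against 0.353 CPM (1 UMI) at E10.5. Twist1 was also higher in cells with either gene at E10.5 (log2 ratio 0.92, 0.23 to 1.64) and within counting error at E9.5 (1.58, -0.04 to 3.6). Prrx2 was lower in them at E9.5 (-0.61, -1.17 to -0.06) and within counting error at E10.5 (0.17, -0.46 to 0.81). These intervals cover counting error within a library, and cells that lack either marker by chance are counted among those without.

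**Figure D4:**
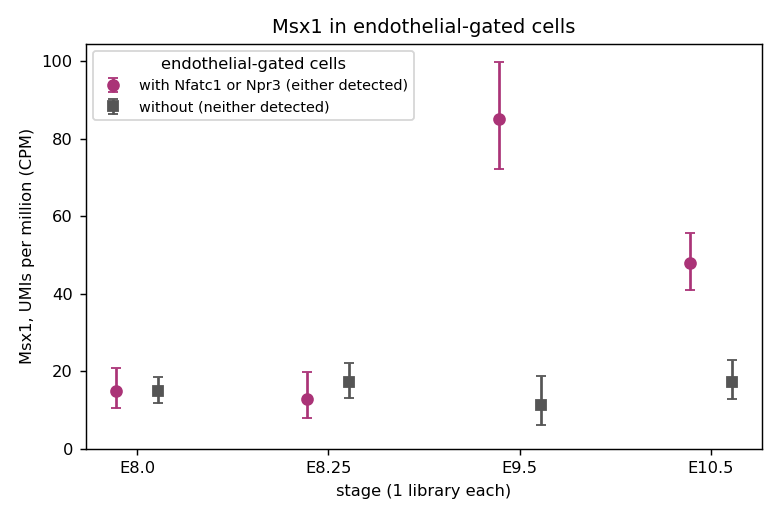
Msx1 level (CPM) in endothelial-gated cells with at least 1 UMI of Nfatc1 or Npr3 (circles) and with neither (squares), by stage, with exact Poisson 95% intervals. The 2 kinds of cells overlap at E8.0 and E8.25 and part at E9.5 (85.1 against 11.2 CPM) and E10.5 (48.0 against 17.3 CPM).

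In endothelial cells 5 of 25 mesenchyme regulators were higher, led by Nfib (1.96), Zeb1 (1.35) and Nfia (0.89), and 16 lower, led by Osr2 (-8.34), Dlx2 (-4.06) and Osr1 (-4.03), with a median of -2.87 against -0.06 over all genes. Of 15 BMP pathway genes the receptor Bmpr2 (1.06) was higher and 8 were lower, led by Grem1 (-4.06), Bmp5 (-3.47) and Nog (-3.04), with a median of -0.57. Vim (2.56) and Fn1 (1.54) were higher among 14 matrix genes and 8 were lower, led by Dcn (-4.52), Lum (-3.93) and Pdgfra (-3.02), with a median of -1.16. Tcf4 (0.38) was higher among 9 Twist partners and 4 were lower, led by Hand1 (-3.77), Id2 (-1.75) and Tcf12 (-0.49), with a median of -0.47.

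Erythroid cells held little of any of the 8 genes. All 8 were called lower there in 3 of 3 libraries and 0 higher, where 34.6% and 18.6% of 14084 genes were, with log2 fold changes from -3.56 for Alx1 to -1.82 for Alx4. Without the library as a block Alx4 (-1.70, adjusted p 0.100) and Msx1 (-2.16, 0.0627) were not called by edgeR. Levels reached 17.9 CPM for Msx1 (12.8, 17.9 and 0.909 CPM without an E9.5 sum) and 17.7 CPM for Prrx2, and at most 6.94 CPM for the others. The lists were lower too, 24 of 25 mesenchyme regulators (median -3.32, led by Dlx5 at -4.67, Ebf1 at -4.65 and Osr2 at -4.18), 9 of 9 Twist partners (-2.95, led by Id2 at -4.05, Id3 at -3.31 and Hand2 at -3.23), 16 of 16 BMP pathway genes (-2.64, led by Bmp4 at -4.13, Id2 and Chrd at -3.40) and 13 of 14 matrix genes (-2.82, led by Dcn at -3.93, Lum at -3.57 and Vim at -3.44), with none higher, against -0.30 over all genes.

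Other compartments held 1 or 2 libraries and were not tested. In branchiomeric muscle, the muscle of the pharyngeal arches, a late compartment, Prrx2 was at 205 and 64.8 CPM and Alx1 at 2.05 and 3.52 CPM. In cranial mesoderm, an early compartment, Twist1 was at 152 and 113 CPM and Msx2 at 4.61 and 6.35 CPM. In mesothelial cells of the late libraries Msx1 was at 11.7 and 6.72 CPM and Prrx1 at 23.4 and 17.5 CPM. Neural crest-gated cells of E8.25 had Msx2 at 55.6 CPM (47.4 to 64.8) against 29.4 CPM and Prrx1 at 7.85 CPM (4.97 to 11.8) against 35.1 CPM. Ungated cells, which carried no marker list clearly, had Alx1 at 35.5 to 56.8 CPM, above the gated cells in 4 of 4 libraries. Prrx1, Prrx2, Twist1 and Alx4 were also above the gated cells in 4 of 4, Twist2 in 3, Msx1 in 2 and Msx2 in 1. The gated cells include erythroid, endothelial and cardiomyocyte cells. The share over all genes was not taken, so these counts have no baseline here. Ungated cells gave from 15.3% (Msx2) to 60.5% (Alx1) of the UMIs of each gene at E8.0, and 30.7% of all UMIs. At E10.5 they gave from 45.6% (Twist2) to 56.1% (Prrx1), and 29.4% of all UMIs. Much of this message thus lay outside the named compartments. Over all 8 genes the median log2 fold change was 0.75 in lateral Hand1 mesoderm, 0.23 in matrix mesenchyme, -0.25 in the posterior second heart field and -0.48 in paraxial mesoderm. It was -1.07 in the second heart field, -2.06 in cardiomyocytes, -2.34 in endothelial and -2.97 in erythroid cells.

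By mean over libraries, Msx2 was highest in lateral Hand1 mesoderm (146 ± 42.5 CPM, SD, n = 4) and Prrx2 in the second heart field (265 ± 93.4 CPM) among compartments with 3 or 4 libraries. Alx1 was at 48.8 ± 11.6 CPM in the posterior second heart field and 48.0 ± 39.0 CPM in lateral Hand1 mesoderm, with the former higher in both early and the latter in both late libraries. Twist2 was higher in matrix mesenchyme than in lateral Hand1 mesoderm in 3 of 3 shared libraries, and this difference was not tested. Prrx1 had an SD of 112 CPM about a mean of 115 CPM in matrix mesenchyme, so its place at the head of the order is not fixed. Twist1 was at 100 ± 38.3 CPM in lateral Hand1 mesoderm and 99.6 ± 50.6 CPM in matrix mesenchyme.

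Single cells were thinned to 10000 UMIs each so that shares of positive cells (at least 1 UMI) could be compared across libraries. Prrx2 was found in 58.7%, 62.3%, 80.6% and 54.6% of cells across the libraries, and Twist1 in 52.0%, 48.7%, 18.1% and 31.7%. Msx1 fell from 38.3% (exact binomial 95% interval 37.1 to 39.5%) to 15.7% (14.8 to 16.6%) between E8.0 and E10.5. Alx4 was found in 1.17% to 2.70% of cells. In erythroid cells, which should lack these genes and had a median of 28804 to 52435 UMIs before thinning against 16899.5 to 35308 in their libraries, shares were at most 4.43% for Prrx1, 13.6% for Prrx2, 9.18% for Twist1, 3.77% for Twist2, 1.16% for Alx1, 0.524% for Alx4 and 3.48% for Msx2. At E8.0 Prrx1 was found in 0 of 86 erythroid cells, which allows a share of up to 4.20% (upper end of the exact binomial 95% interval). Msx1 was found in 11.6% and 15.2% of erythroid cells at E8.0 and E8.25, so that shares near these values cannot be read as expression in the early libraries. In lateral Hand1 mesoderm Msx1 was found in 74.9%, 76.5%, 50.9% and 48.5% of cells, well above them.

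Without thinning the order of stages changed for some genes. The highest share lay in a late library for 5 of the 8 genes after thinning and for 2 without it. How many of all genes did so was not taken. Before thinning Twist1 was found in 67.7% of cells at E8.0 and in 74.8% at E8.25, the deepest library. At the thinning depth 938, 25, 431 and 1449 shallower cells of the 4 libraries were left out.

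Most cells carried at least 1 of the 8 genes, and a minority carried 4 or more. At least 1 was found in 91.2%, 87.0%, 90.7% and 76.1% of cells across the libraries, and at least 4 in 21.5%, 16.1%, 20.5% and 22.6%. At least 6 were found in 1.13%, 1.5%, 4.5% and 4.39%, a higher share in each late library than in each early one. All 8 were found in 0, 2, 7 and 14 cells. The lower share with any gene at E10.5 stands beside an erythroid share of 15.7% there.

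Of the 28 pairs, 21 were found in the same cell more often than independent detection gives in all 4 libraries. The ratio of observed to expected cells was above 1 for 21, 25, 28 and 28 pairs across the libraries, with medians of 1.09, 1.19, 1.47 and 1.52. Such a ratio includes the mix of cell types. Without erythroid, endothelial and cardiomyocyte cells 16 pairs stayed above 1 in all 4 libraries. The share over other pairs of genes was not taken, so these counts of pairs have no baseline here. The Msx pair stood at 2.01, 2.48, 2.56 and 3.0. Of Msx1 cells 47.6%, 36.2%, 47.3% and 32.1% carried Msx2, and of Msx2 cells 77.1%, 62.6%, 54.8% and 47.1% carried Msx1.

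**Figure D5:**
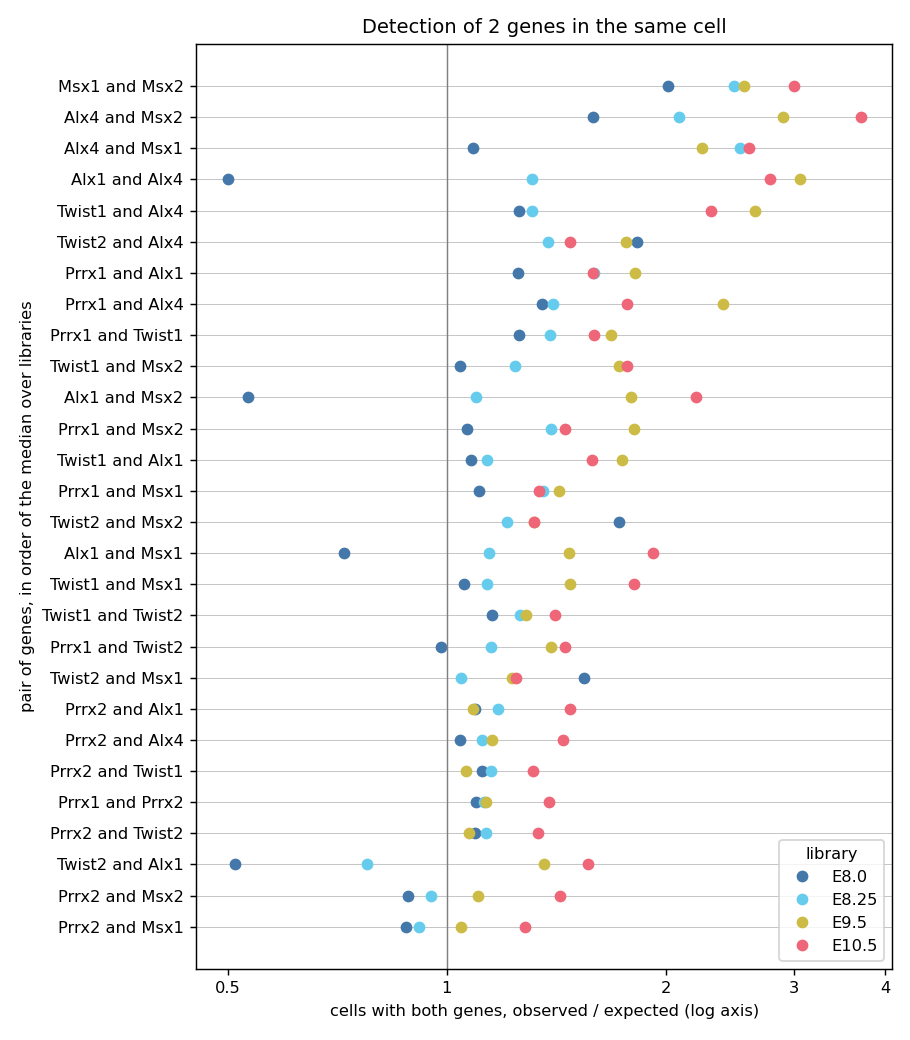
Number of cells in which both genes of a pair were found, divided by the number that independent detection gives (log axis), for 28 pairs and 4 libraries after thinning to 10000 UMIs. Msx1 and Msx2 lie at 2.01 to 3.0, and pairs with Alx1 lie below 1 at E8.0 for Alx4, Twist2, Msx1 and Msx2.

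Inside lateral Hand1 mesoderm the Msx ratio was 1.10, 1.09, 1.27 and 1.29, nearer to 1 than over all cells. In the late posterior second heart field, where each gene was rarer, 39 cells carried both against 11.6 expected at E9.5 (3.37) and 44 against 15.3 at E10.5 (2.87). In ungated cells the ratio was 2.46, 2.15, 2.26 and 2.16. Prrx1 and Twist1 stood at 1.26, 1.39, 1.68 and 1.59 over all cells, and at 1.25, 1.29 and 1.04 in matrix mesenchyme from E8.25 on. Twist1 and Twist2 stood between 1.26 and 1.41 over all cells from E8.25 on, and at 0.820, 0.964 and 1.0 in matrix mesenchyme, the compartment where both were raised.

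The paralogs Alx1 and Alx4 were found together in 5 cells against 10.0 expected at E8.0 (0.500) and 15 against 11.5 in the next library (1.31). In the late libraries it was 48 against 15.7 (3.06) and 88 against 31.7 (2.78). The ratio below 1 at E8.0 rests on 5 cells and has no interval. Of the 72 Alx4 cells at E8.0, 21 were allantois cells. Of Alx4 cells 6.94%, 21.7%, 67.6% and 53.7% carried Alx1, and of Alx1 cells 0.583%, 3.16%, 6.23% and 7.50% carried Alx4. Alx1 with Twist2 was below 1 early (0.511 and 0.777) and above it late (1.36 and 1.56). Alx1 with Msx1 (0.722) and with Msx2 (0.533) was also below 1 at E8.0, the library with allantois cells, in which Alx1 was at 2.85 CPM. Prrx2 with either Msx gene was below 1 in both early libraries (0.880 to 0.951). Prrx1 with Prrx2 stayed between 1.10 and 1.38, and of Prrx1 cells 64.4% to 91.3% carried Prrx2.

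The genes whose levels were most like each of the 8 were ranked over 41 sums of a compartment in a library, by Pearson correlation of log2(CPM + 5) among 9410 genes. The sums share libraries and depth, and the values are descriptions. Msx2 was most like Hand1 (r = 0.83), itself a marker of the lateral gate, then Prdm6 (0.79) and Mirg (0.75). Msx1 was most like Rarg (0.77), a retinoic acid receptor, Nkd1 (0.76), an inhibitor of Wnt signalling, and Spin2c (0.76). Twist2 was most like Col1a1 (0.85), a fibrillar collagen and matrix marker, Dzip1 (0.83) and Tmem119 (0.83), and Twist1 like Gja1 (0.83), a gap junction protein, Thbs3 (0.81) and Rarg (0.79). Prrx1 was most like Nfatc4 (0.88), Crispld1 (0.87) and Gm26523 (0.87), and Prrx2 like Arl3 (0.91), Dzip1l (0.88) and Ptbp2 (0.87). Alx1 was most like Sfrp1 (0.78), a secreted Wnt inhibitor, Itga8 (0.77) and Pdgfra (0.77), and Alx4 was like Ndnf (0.66) and Ddr2 (0.66). Among the 8 themselves the Msx pair was closest (0.80), followed by Prrx1 with Twist2 (0.73), Prrx1 with Alx1 (0.71) and Prrx1 with Twist1 (0.70), while Msx1 and Prrx2 were least alike (0.19). Without the E10.5 library 8 of the 24 nearest genes stayed on the list, and without E9.5 15 did, so the names depend on which libraries are used.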

How the data were processed

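Single-cell RNA sequencing (10x Genomics 3' kit, version 2) was analysed in 4 libraries, 1 per stage. Per the labels and the study's methods, the authors aligned reads to mm10 with Cell Ranger 3.1.0 and deposited raw UMI counts per gene and called cell, neither normalized nor pooled across libraries. The deposited counts name genes by Ensembl ID and symbol.

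Cells with at least 1000 genes and at most 10% mitochondrial UMIs were kept, and the highest Scrublet scores (scanpy 1.11.5) were removed as doublets at 0.8% per 1000 cells. Cells with at least 10000 UMIs were thinned to that number for gating and detection, and shallower cells entered neither side of a compartment comparison. A marker was on at 3 times its mean thinned count or more, and at least 1 UMI. A gate needed at least 2 markers and 40% of its list, the highest share won and ties stayed ungated. These thresholds were set after gate sizes and markers had been seen. Sums of unthinned UMI counts of gated and other cells per library were tested with edgeR 4.0.16 (TMM, filterByExpr, quasi-likelihood test, library as a block, Benjamini-Hochberg adjustment, threshold 0.05), tested first on simulated data. DESeq2 1.42.0 was an alternative. R 4.3.3, Python 3.11.15, numpy 2.4.6, scipy 1.17.1 and pandas 2.3.3 were used.

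The members, gene lists and markers were chosen with earlier results of these data known. Named are the 8 genes, the 3 genes most like each (at least 10 CPM in at least 3 sums), and up to 3 called genes per direction of each list (further mesenchyme regulators, Twist partners, BMP signalling, mesenchymal matrix), markers of the tested gate left out; some genes that this rule names are not reported here. Id1, Id2 and Id3 are on 2 of the lists. Stage ratios used genes with at least 50 UMIs. Intervals are exact Poisson, conditional binomial and Clopper-Pearson at 95%. Promoters are RefSeq, build GRCm38.p6, whose coordinates serve for mm10. Alternatives were the scaling, cell filter, doublets, gate, low-count filter, block, thinning depth, pseudocount (1 in place of 5) and each library left out. UMIs mark molecules, but the libraries are the units of every test, and residual spread between them includes stage.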

Additional observations from a re-analysis of the deposited data

How the results depend on the processing

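Of 664 fold changes of single genes refitted under an alternative, 571 kept their direction and their side of the threshold, 32 lost a call, 37 gained one and 24 turned in sign, none of them called in either fit. The number of genes called moved without the library block from 3 to 1 in lateral Hand1 mesoderm, from 4 to 0 in matrix mesenchyme, from 1 to 0 in paraxial mesoderm and from 5 to 0 in the second heart field, a fit that adds the spread between stages to the error. With DESeq2 it was 5 in lateral Hand1 mesoderm, 4 in paraxial mesoderm and 1 in the posterior second heart field. In paraxial mesoderm it was 2 without a filter on low counts, 3 with the stricter gate and 3 with doublets kept. In the second heart field it was 2 with gates on unthinned counts. With a library left out, counts ran from 2 to 5 in matrix mesenchyme, from 1 to 5 in paraxial mesoderm, from 0 to 1 in the posterior and from 3 to 6 in the second heart field, and 8 to 15 of the 24 nearest genes stayed. Without thinning 2 genes in place of 5 had their highest share of positive cells in a late library. The Prrx2 ratio of E10.5 to E8.0 turned from -0.08 to 0.23 without erythroid cells and to 0.093 with globin, mitochondrial and ribosomal protein genes taken out. With a library left out, the values that turned ran in matrix mesenchyme from -0.17 to 0.86 for Prrx1, from -0.22 to 0.17 for Prrx2 and from -0.65 to 0.093 for Alx1. They ran in paraxial mesoderm from -1.003 to 0.32 for Twist2, from -0.037 to 0.49 for Prrx2 and from -0.45 to 0.23 for Prrx1, in the posterior second heart field from -0.14 to 0.39 for Twist2, in lateral Hand1 mesoderm from -0.032 to 0.88 for Alx1 and in cardiomyocytes from -0.017 to 0.29 for Prrx2. Without erythroid cells Prrx2 turned in matrix mesenchyme (-0.066), cardiomyocytes (-0.033) and the posterior second heart field (-0.046), and Twist2 in the last (-0.017). With the stricter gate Prrx1 turned in lateral Hand1 (-0.14) and paraxial mesoderm (0.071) and Prrx2 in the posterior second heart field (-0.0096). With unthinned gates Alx1 turned in matrix mesenchyme (0.35) and Twist2 in the posterior second heart field (-0.10), without the block Prrx2 in matrix mesenchyme (-0.043), and with doublets kept Prrx1 in paraxial mesoderm (0.068). The cause of these changes was not tested. Alx4, at 153 to 366 UMIs per library, is limited by depth, and no stage has a replicate.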
